A study of Mus musculus with 2 samples.

Results

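In gastrocnemius, a fast calf muscle, 2562 spliced transcript models carried a splice junction with an end outside the annotation and were classed as such in both libraries. They were chosen by class (abbreviated NNC in the deposited tables, for models with a splice site outside the annotation) in each table and matched by their full chain of introns. They made up 20.3% of the 12648 NNC models of replicate 1 and 20.0% of the 12783 of replicate 2. Among spliced models of every class, the tables held 53224 in replicate 1 and 50294 in replicate 2, of which 23250 chains were shared. A further 435 NNC chains of replicate 1 and 424 of replicate 2 were listed in the other table under another class. That class was mostly the one for new combinations of annotated sites, although all 435 and all 424 held a site outside the annotation. These chains were not counted as recurrent. Both samples were gastrocnemius tissue of male B6CASTF1/J (the F1 cross of C57BL/6J and CAST/EiJ) aged 36 days, with 2 μg of RNA each. Both belonged to the same group, with no treatment and no control, so each comparison below sets recurrent models against other models or replicate 1 against replicate 2. The labels number the males separately and call the samples biological replicates, but give both the same donor identifier, so the number of mice is not settled. With 1 sample per library, intervals and tests on reads cover counting error only, and a difference between libraries cannot be told apart from a difference between samples.

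Each model is a transcript structure built from long cDNA reads, and its count is the number of reads assigned to it. Reads in annotated genes numbered 1036455 in replicate 1 and 1374068 in replicate 2. All 8 muscle fibre markers were read in both libraries and summed to 305343 and 214182 CPM (reads scaled to a common library total) in replicates 1 and 2. The 15 markers of connective tissue, vessel, nerve, fat, blood and immune cells summed to 3917 and 1400 CPM. Among the leukocyte markers, Ptprc had 0 reads in both libraries and Cd68 had 6 in replicate 1 and 3 in replicate 2. Incomplete models and unspliced genomic models made up 14.5% of the reads in genes for replicate 1 and 24.3% for replicate 2. Shares below count these reads in the gene's total, and shares among complete models alone are added for the named models that differed between the libraries.

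Introns are removed between a donor site at their start and an acceptor site at their end. Nearly all introns begin with GT and end with AG, and a minority begin with GC. Shifting a site by a multiple of 3 bases inside a coding region keeps the reading frame, whereas other shifts change it. Muscle is known for many alternatively spliced sarcomere and calcium-handling genes, among them troponin T and the SERCA calcium pump, some with exons of only a few codons.

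The recurrent models rested on few reads. In annotated genes there were 2540 of them in 1536 genes (the other 22 lay in unannotated loci or were assigned to different genes in the 2 tables). Of the 2540, 840 had 1 read in each library, 299 had at least 5 in each, and 18 had at least 100 in each. They held 115443 reads in replicate 1, which was 11.1% of all reads in genes (95% Wilson interval 11.1% to 11.2%), and 48078 in replicate 2, 3.50% (3.47% to 3.53%). Models of Atp2a1, the fast-fibre SERCA calcium pump, alone held 98857 and 31389 of these reads. With Atp2a1 left out, the recurrent models had 1.78% of the remaining reads in genes for replicate 1 and 1.25% for replicate 2. The other NNC models were mostly seen once: 82.1% of all NNC models in replicate 1 and 79.7% in replicate 2 had 1 read.

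Sequences that carry the main patterns could be read where a new site lay inside an annotated exon or promoter window. Read from 5′ to 3′ on the transcript strand, with the 2 intron-end bases of the new site in capitals, a few donor sites are shown because their models were the most read of their gene or kind.
Mrpl33 donor, 8 bases past the annotated one, chr5:31614017-31614046 (+): tctcttgtaagtcgGTctgaggcggcggca
Pitpna donor, 4 bases past, chr11:75603460-75603489 (+): cctacccttactgcagaaccggtgaGTgca
Rps24 donor, 18 bases past, chr14:24494074-24494103 (+): tgccattgggcacgGTgtggggtgtgccac
Hnrnpk donor, 16 bases past, chr13:58394044-58394073 (-): tgagtatcaataatGTtaataatgtacata
Mknk2 donor, 42 bases short, chr10:80676107-80676136 (-): ccgggctgtgctagGTgaggtgacggcgct
Gpt2 donor, 208 bases short, chr8:85516016-85516045 (+): gccttgcccaggagGTaggagggtggtctc
Each of these 6 introns began with GT in the reference sequence. In Pitpna the annotated donor GT stood 4 bases before the new one, in the same window.

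New splice sites fell into a large group near annotated sites and a larger group far from them. The 2540 models held 3145 distinct new sites, 1785 donors and 1360 acceptors, and 75.4% of the models had a single one. Of the 3135 sites whose gene had an annotated site of the same kind, 931 (29.7%, 95% Wilson interval 28.1% to 31.3%) lay within 10 bases of it, 575 lay 11 to 100 bases away and 1629 more than 100 bases away. Among models, 903 had a shift of 1 to 10 bases, 585 a shift of 11 to 100 bases and 476 a longer shift in an exon that overlapped annotated exons. New first exons occurred in 334 models, new internal exons in 274, new last exons in 125 and new introns inside an annotated exon in 94. New junctions were the first of their model in 36.2% of cases, although first junctions made up 11.6% of all junctions of these models.

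Close to annotated sites, donors and acceptors moved by different steps. Donors most often moved 4 bases downstream, which lengthens the exon by 4 bases: 261 sites in 218 genes, against 22 sites with 4 bases less and 32 with 3 bases less. The gained bases could be read for 61 of the 261, and the new intron began with GT at all 61. The most frequent gained bases were GTGA at 20 of them, GTAA at 15 and GTCA at 7. Acceptors most often moved 3 bases downstream, which shortens the exon by 3 bases: 107 sites in 104 genes, against 25 sites with 3 bases more. All 107 could be read, and the removed bases were AAG at 38, GAG at 36, CAG at 25 and TAG at 8. A shortening by 2 bases occurred at 72 acceptors, by 4 at 64, by 5 at 51 and by 6 at 41.

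**Figure D1:**
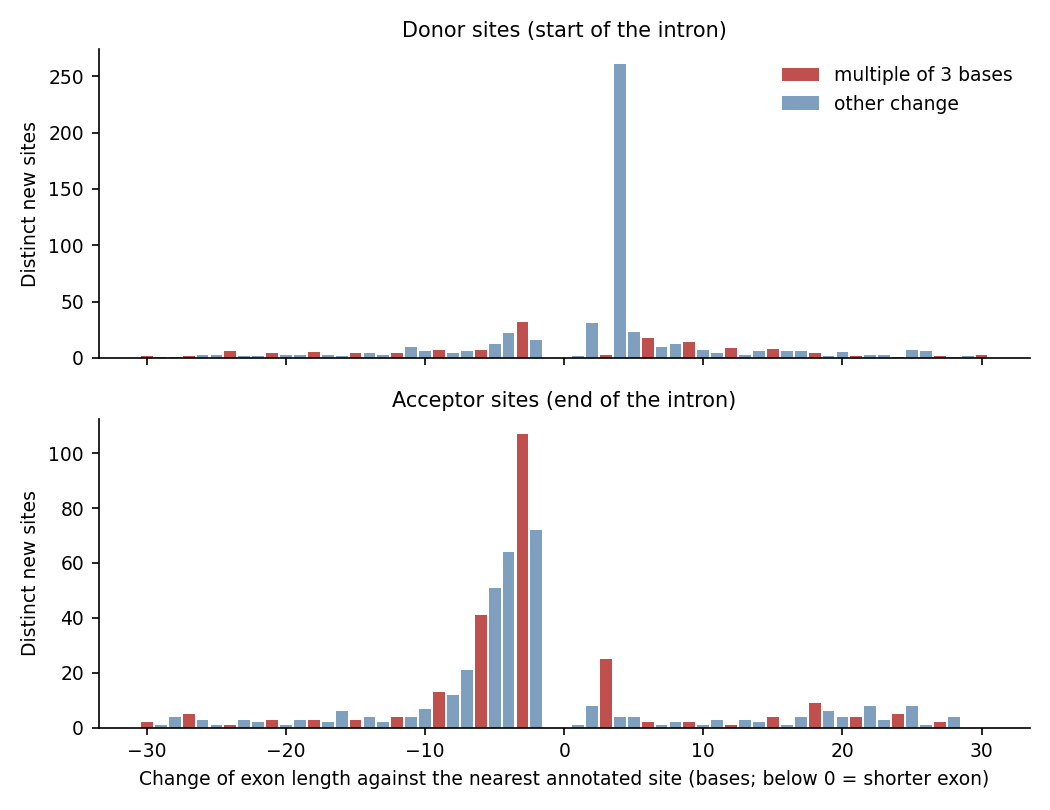
Number of distinct new donor sites (top) and acceptor sites (bottom) by the change of exon length in bases against the nearest annotated site of the gene, with changes that are multiples of 3 in red and other changes in blue. Donors peak at 4 bases gained (261 sites), whereas acceptors peak at 3 bases lost (107 sites).

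Changes by a multiple of 3 made up a larger part of acceptor changes than of donor changes. Within 30 bases of an annotated site, 236 of 567 acceptor changes (41.6%) were multiples of 3, against 137 of 643 donor changes (21.3%). At annotated sites between coding bases the shares were 40.7% of 489 acceptors and 20.3% of 538 donors, and at other annotated sites 47.4% of 78 and 26.7% of 105. For both kinds together the share was 30.8% (95% Wilson interval 28.3% to 33.5%), an interval that includes the 1 in 3 found among whole numbers. This pooled share averages a lower donor share and a higher acceptor share, so it cannot show whether reading frame matters. Nor were the changes spread evenly over whole numbers, as 261 donor sites gained 4 bases and 2 gained 1 base.

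Most sites close to an annotated one took a small part of the reads. Usage here is the reads of a new site divided by the reads of that site and of the nearest annotated site, over all spliced models. Its median was 0.667% in replicate 1 and 0.847% in replicate 2 for the 931 sites within 10 bases. For the donors with 4 bases gained it was 0.461% and 0.671%, and for the acceptors with 3 bases lost 2.44% and 2.94%. The 25 acceptors with 3 bases gained had a median usage of 28.6% in replicate 1 and 25.0% in replicate 2, as a description of few sites with few reads. Of the 76 sites within 10 bases that had at least 10 reads in each library, 18 took over 50% of the reads in both.

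Of 54 new introns with 2 new ends, both within 30 bases of annotated sites, 4 had both ends moved by the same number of bases. These lay in 4 genes, and the summed length of the 2 flanking exons was kept. In Got2, the mitochondrial aspartate aminotransferase, the donor gained 4 bases and the acceptor lost 4. That junction had 45 of 131 and 37 of 89 reads at the pair of donors in replicates 1 and 2 (34.4% and 41.6%). The other genes were Eif3h, Emc3 and Mtch1.

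Of the 12 best-read recurrent models, 6 had a new intron that spanned an annotated exon of 30 bases or less, the Atp2a1 model first among them. In Atp2a1 the annotated intron pair around an exon of 18 bases gave way to 1 intron, chr7:126462188-126462778, whose donor lay 26 bases past the annotated one. No model with the 18-base exon as a separate exon had a read in either library. The new donor had 100036 reads against 32 at the annotated donor in replicate 1, and 31980 against 14 in replicate 2. In Hacd1, a dehydratase of very long chain fatty acid synthesis, the new intron spanned an exon of 19 bases. The preceding exon gained 27, in 305 and 447 reads, and models with the separate exon had 0 reads in both libraries. In Tnni2, fast troponin I, the spanned exon had 7 bases and the gain was 4, in 197 and 275 reads. Models with the separate exon again had 0 reads.
The spanned exons of these 3 genes, and of 5 more genes in which such a model had the most reads, shown whole and in capitals because they are absent from the new models as separate exons, were:
Atp2a1, chr7:126462500-126462517 (-): AGCTCCCTGCTGAGGAAG
Hacd1, chr2:14044948-14044966 (-): GTAGTCCATTGTCTGATCG
Tnni2, chr7:142442691-142442697 (+): TGAGGAG
Ampd1, chr3:103075407-103075418 (+): GTCAAGGAAAAC
Rps24, chr14:24495430-24495449 (+): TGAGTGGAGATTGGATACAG
Hnrnpk, chr13:58393853-58393868 (-): GGTGGTTCTGGATATG
Suds3, chr5:117106646-117106665 (-): AGCTCTTCCTCCAGCTGGAA
Mrpl33, chr5:31614603-31614621 (+): TTGCCAAGAGCAAGTCAAA

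Across all recurrent models, 153 in 66 genes had a new intron that spanned an annotated internal exon of 30 bases or less. These 153 held 87.9% of the recurrent models' reads in replicate 1 and 74.5% in replicate 2, and 16.3% and 26.6% without Atp2a1. They accounted for 110 of 2909 distinct new introns (3.78%) in recurrent models, against 408 of 20961 new introns (1.95%) found in a single library. Some of the 110 came from the same gene, as in Tnnt3 and Atp2a1, and recurrent models were more frequent in genes with many reads. The part of depth in this difference was not tested. A single annotated exon lay inside 64 of the new introns. In 55 of these the flanking exons gained 1 to 100 bases in all, and in 6 they gained none. Among the 55, the gain equalled the length of the spanned exon in 5. It was within 3 bases of it in 23 and within 10 bases in 47, with a median difference of -1 base. The spanned exons had only 3 to 28 bases, and no new introns without such an exon were compared. The count within 10 bases thus cannot show that gain follows exon length. Across these 55 introns in 47 genes, length and gain had a Spearman rho of 0.54 and a Pearson r of 0.26, as a description of introns that in part share a gene. Of 47 spanned exons, 22 had no reads in either library in models with the separate exon, and 22 had reads in both. Bsg, which encodes basigin, was of the second kind: its exon of 25 bases had 915 and 1080 reads, and the intron that spanned it, with 28 bases gained, had 54 and 58. This count was made after the pattern had been seen, and whether the gained bases stand for the spanned exon's bases in the reads was not tested.

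**Figure D2:**
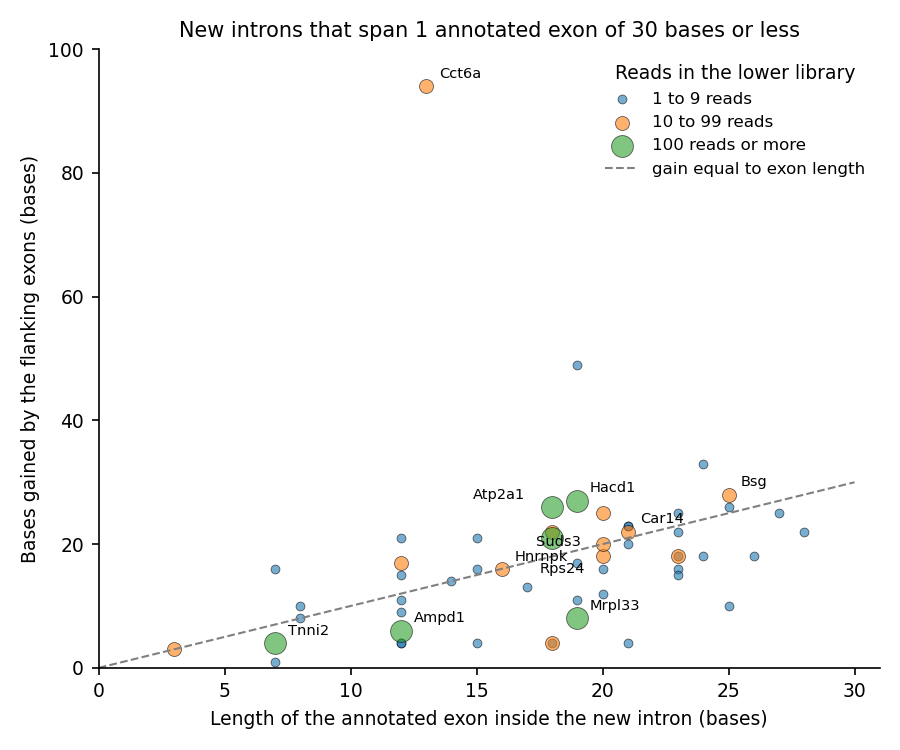
Bases gained by the flanking exons (vertical, in bases) against the length of the annotated exon inside the new intron (horizontal, in bases) for the 55 new introns with 1 such exon of 30 bases or less and a gain of up to 100 bases. Point size stands for the reads in the library with fewer, genes with at least 40 are named at their most-read intron, and 47 points lie within 10 bases of the dashed line of equal length, with Cct6a at 94 bases gained the farthest from it.

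New internal exons, which by definition have both ends new and overlap no annotated exon, were shorter in the median than annotated ones. The 288 distinct new internal exons in 240 genes had a median length of 92 bases and ranged from 23 to 598, against a median of 118 bases for the 14109 annotated internal exons of the genes with a recurrent model. Their length was a multiple of 3 in 116 (40.3%, 95% Wilson interval 34.8% to 46.0%), against 40.1% of the annotated exons. Of the 26 with at least 5 reads of recurrent models in each library, 13 had such a length. Only 8 of the 288 had 30 bases or less.

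The best-read new exon was a 45-base exon of Ywhae, which encodes the adaptor protein 14-3-3 epsilon. The exon lies at chr11:75762698-75762742 and its models had 273 reads in replicate 1 and 276 in replicate 2, of 393 and 410 reads of the gene. A 45-base exon of Bin1, whose product shapes the transverse tubules of muscle, had 246 of 764 and 167 of 639 reads. An 81-base exon of Tmem65, at chr15:58807078-58807158, had 88 of 124 and 68 of 108 reads. All 3 lengths are multiples of 3. Some well-read new exons had a small part of their gene's reads: a 64-base exon of Tnnt3, fast troponin T, had 22 of 2979 and 37 of 6527, and a 70-base exon of Tmem38a, a cation channel of the sarcoplasmic reticulum, had 51 of 1850 and 21 of 1827.

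**Figure D3:**
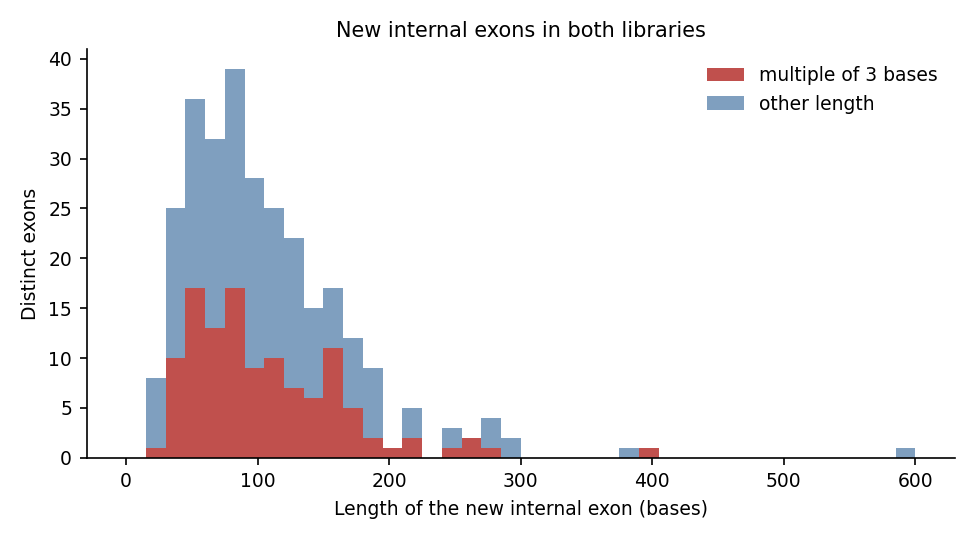
Distribution of the length in bases of the 288 distinct new internal exons, stacked by whether the length is a multiple of 3 (red, 116 exons) or not (blue). The median is 92 bases and 8 exons have 30 bases or less.

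The 94 new introns inside annotated exons had a median length of 394.5 bases and ranged from 42 to 6023. Of these, 82 had GT at the start and AG at the end and 10 had GC and AG. The best-read one, 181 bases in Casq1, which encodes the calcium-binding protein calsequestrin of fast fibres, had 195 of 8060 reads in replicate 1 and 119 of 5684 in replicate 2. In Gpd2, the mitochondrial glycerol 3-phosphate dehydrogenase, an intron of 1989 bases was carried by 150 of 203 and 68 of 107 reads. These ends are shown because both sites of each intron could be read, with the intron-end bases in capitals.
Casq1 donor, chr1:172219822-172219851 (-): tccaggacccagcaGTgtcctctgtccact
Casq1 acceptor, chr1:172219643-172219672 (-): atgggggccagagcAGtgtccgagctgcgg
Gpd2 donor, chr2:57367460-57367489 (+): agttgtggaggattGTgagtctgaccagta
Gpd2 acceptor, chr2:57369447-57369476 (+): ctctctctctttctAGttagatcaagataa
The sequence around a donor can recur at its acceptor. Within windows of 30 bases centred on the 2 ends, the Casq1 intron had a shared run of 10 bases, 1 base out of register with the intron ends, and the Gpd2 intron one of 5. A shared run of at least 8 bases, a limit set after the values had been seen, occurred in 17 of the 94 introns (18.1%), against 1.95% of 1333 annotated introns of at least 30 bases inside exons of the same genes. The median run was 5 bases in both sets. Counted strictly in register with the ends, 7 introns shared at least 6 bases (7.45%), against 3.20% of 1343 annotated ones.

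The best-read new first exon belonged to Myh4, the myosin heavy chain of type 2B fast fibres. Its model had 3501 of 14581 reads in replicate 1 and 765 of 22718 in replicate 2. Counted among complete models alone (the annotated, new-combination and NNC classes), the shares were 52.5% and 49.7%. The model's new first exon, chr11:67237573-67237833, was joined to an acceptor inside the annotated first exon. The RefSeq start of the gene (GRCm38.p6) lies 22 bases before the new donor, where the GENCODE M21 models have no exon. The stretch from RefSeq's promoter window is shown because it holds the donor and the nearest TATAAA upstream of it, both in capitals. This TATAAA lies inside the model's own first exon, downstream of the model's start.
Myh4, chr11:67237777-67237839 (+): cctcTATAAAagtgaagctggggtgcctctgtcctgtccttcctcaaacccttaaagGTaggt
TATAAA, searched on both strands, occurred in 13.6% of the 32851 RefSeq promoter windows of the same length and 3 times in the window of Myh4. Another first exon, in Park7, whose product protects against oxidative stress, had 155 of 1198 and 259 of 2300 reads.

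Ighm, which encodes the constant region of the immunoglobulin mu chain, had 27 recurrent models, fewer only than Atp2a1 with 52 and Ckm, muscle creatine kinase, with 33. Of the 27, 26 were joined to the same acceptor, chr12:113422731, from 26 different donors spread over 2626 bases, chr12:113424028 to chr12:113426654. Together the 27 models held 170 of 304 gene reads in replicate 1 and 156 of 248 in replicate 2 (55.9% and 62.9%). The stretch upstream of the mu constant exons holds the repeats of the class-switch region, and rearranged variable genes are spliced to those exons.

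Most recurrent models held a small share of their gene's reads. For the 2086 recurrent models of genes read at least 20 times in each library, the median share was 0.826% in replicate 1 and 0.806% in replicate 2. Models classed as new combinations of annotated sites in both libraries had 2.56% and 2.22%, and annotated models 46.8% and 32.1%. Shares over 10% in both libraries occurred in 102 of the 2086 (4.89%), and shares over 50% in 16. Models with a shift of 1 to 10 bases alone had medians of 0.478% and 0.451%, against 1.79% and 1.96% for those with a new intron inside an exon alone.

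Some of the best-read recurrent models stood beside more abundant models of their gene. Myl1, the fast essential myosin light chain, had 225 of 19893 reads in replicate 1 and 966 of 39881 in replicate 2 in a model with 37 bases gained at an acceptor, and 155 and 293 in another with 26 bases gained at a donor. Tnnt3 had 219 of 2979 and 564 of 6527 reads in a model that joined a donor 9 bases past the annotated one to an acceptor 80 bases early, across a stretch with 9 annotated exon forms of 30 bases or less. These models of Myl1 and Tnnt3 thus had shares below 10% in both libraries although their reads were many. Sfr1, a recombination protein, had 44 of 109 and 46 of 147 with 144 bases gained at an acceptor. Ckm had 92 of 77131 and 67 of 90410 in a model with 190 bases gained, or 0.119% and 0.0741% of its reads.

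A recurrent new-junction model was the most-read model in both libraries in 31 of the 3691 genes read at least 20 times in each (0.84%), whereas an annotated model led in 2718. Among these 31, the mean share of gene reads over the 2 libraries ranged from 32.8% to 97.6% with a median of 61.3%, and exceeded 50% in each library for 16. In 13 of the 31 the new intron spanned an annotated exon of 30 bases or less. A site shift was the sole kind of change in 24, and 3 had a new internal exon.

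The 3 highest mean shares were those of Mrpl33, Atp2a1 and Hacd1. Mrpl33, a protein of the mitochondrial ribosome, had 335 of 340 reads in replicate 1 and 744 of 770 in replicate 2 in its new-junction model, a share of 97.6% ± 1.35 (SD, n = 2). Both libraries were nearly alike, and the donor lay 8 bases past the annotated one. The Atp2a1 model had 97565 of 104072 and 30697 of 35745 reads, 89.8% ± 5.56 (SD, n = 2). The Hacd1 model had 303 of 346 and 446 of 509 reads, 87.6% ± 0.0357 (SD, n = 2). In all 3 models the new intron spanned an annotated exon, of 19 bases in Mrpl33, 18 in Atp2a1 and 19 in Hacd1. With the models taken as built, the gain minus the spanned length was -11, 8 and 8 bases, none a multiple of 3. Whether the bases of the spanned exons are in the reads was not tested.

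Vdac3, a channel of the mitochondrial outer membrane, had 469 of 533 reads in replicate 1 and 777 of 1055 in replicate 2 in a model whose donor lay 1 base past the annotated one, and no read used the annotated donor. Its share was higher in replicate 1 by 14.3 percentage points (Fisher's exact test, Benjamini-Hochberg adjusted p = 9.06e-10), although among complete models it was 91.4% and 90.2%. Ampd1, the AMP deaminase of muscle, had 261 of 455 and 136 of 280 reads in a model with 6 bases gained and an exon of 12 bases spanned. Hfe2, hemojuvelin of iron regulation, had 286 of 732 and 154 of 516 with 18 bases gained at an acceptor.

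Genes of RNA handling, translation and folding were among those led. Hnrnpk, an RNA-binding protein, had 68 of 167 reads in replicate 1 and 50 of 158 in replicate 2 in a model with 16 bases gained and an exon of 16 bases spanned. Rps24, a ribosomal protein, had 72 of 112 and 115 of 247 with 18 bases gained and 20 spanned. Its share was higher in replicate 1 by 17.7 points (Fisher's exact test, adjusted p = 0.034), and among complete models it was 91.1% and 86.5%. Cct6a, a subunit of the chaperonin CCT, had 111 of 136 and 92 of 126 with both ends of the intron new. In all 3 genes the new model had the most reads in each library, with shares between 31.6% and 81.6%.

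Others served signalling, ion or lipid transport. Pitpna, a phosphatidylinositol transfer protein, had 135 of 197 and 113 of 235 reads in a model with 4 bases gained and 2 annotated exons of 30 bases or less spanned. Its share was higher in replicate 1 by 20.4 points (Fisher's exact test, adjusted p = 0.00074), and among complete models it was 72.6% and 54.1%. Mknk2, a kinase that phosphorylates the cap-binding factor eIF4E, had 246 of 488 and 76 of 192 with an exon 42 bases shorter. Car14, a membrane carbonic anhydrase, had 48 of 113 and 114 of 207 with 22 and 26 bases gained at separate introns. It was higher in replicate 2, unlike most of the 31, but its difference was not called (Fisher's exact test, adjusted p = 0.30).

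**Figure D4:**
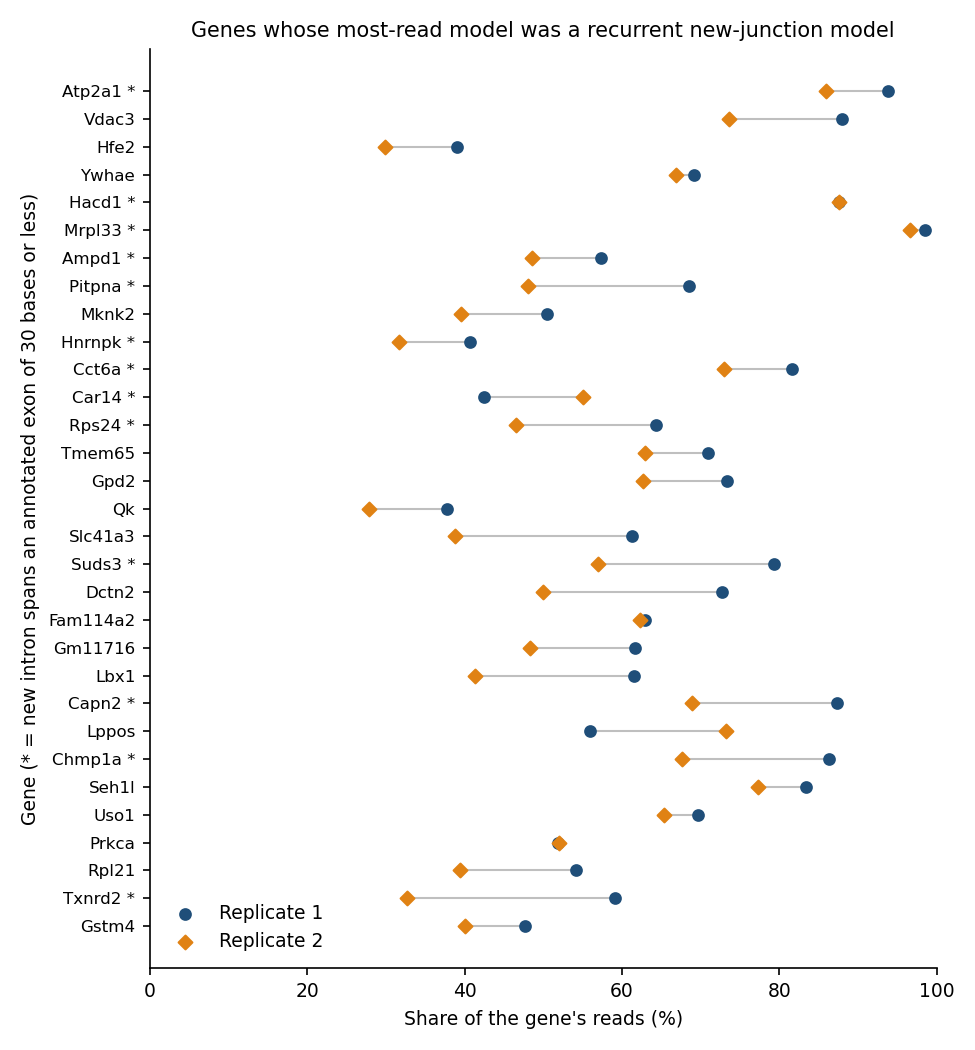
Share of the gene's reads (%) held by the leading recurrent new-junction model in the 31 genes it led, with replicate 1 as circles and replicate 2 as diamonds, in falling order of gene reads in the lower library. Mrpl33 lies at 98.5% and 96.6%, and the 13 genes marked with an asterisk have a new intron that spans an annotated exon of 30 bases or less.

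Few recurrent models were called different between the libraries. Fisher's exact test of each model's reads against the other reads of its gene called 12 of the 2086 recurrent models (0.575%) where a call needed an adjusted p below 0.05 and a difference of 10 percentage points or more, against 4.3% of all 15527 spliced models in both libraries. Of the 2086, 996 had under 1% of their gene's reads in both libraries and could not differ by 10 points, and 32 passed the adjusted p alone, against 1036 of all spliced models. Of the 12, 10 were higher in replicate 1. In all spliced models 598 of the 667 calls were higher in replicate 1 as well, the library with fewer incomplete and genomic reads. The part of this composition in the calls was not tested one by one. With complete models alone as the denominator, 2 of 1928 recurrent models were called, against 0.394% of all models tested.

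The 6 largest called differences lay in Gm12224, Dctn2, Slc41a3, Suds3, Ewsr1 and Myh4. Myh4 was higher in replicate 1 by 20.6 points with the values given above, and its shares among complete models were 52.5% and 49.7%. Dctn2, a dynactin subunit, had 85 of 117 reads in replicate 1 and 36 of 72 in replicate 2 (adjusted p = 0.031 by Fisher's exact test). Suds3, of the Sin3 deacetylase complex, had 69 of 87 and 45 of 79 in a model that gained 4 and 16 bases around a spanned exon of 20 bases (adjusted p = 0.039 by Fisher's exact test). Slc41a3 had 76 of 124 and 31 of 80 in a model with a new first exon. Ewsr1, an RNA-binding protein, had 20 of 71 and 5 of 79 with 3 bases gained at a site. Gm12224 moved the other way, with 7 of 37 and 42 of 88. Among complete models the shares in replicates 1 and 2 were 78.7% and 64.3% for Dctn2, 86.3% and 75% for Suds3 and 71.0% and 60.8% for Slc41a3. They were 38.5% and 20.0% for Ewsr1 and 50% and 75% for Gm12224.

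Gpt2, the mitochondrial alanine aminotransferase, was also among the 12, with 156 of 404 reads in replicate 1 and 95 of 361 in replicate 2 in its model with 208 bases fewer. Its share was higher in replicate 1 by 12.3 points (Fisher's exact test, adjusted p = 0.0081), but among complete models it was 50.2% and 55.2%, which is lower in replicate 1.

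**Figure D5:**
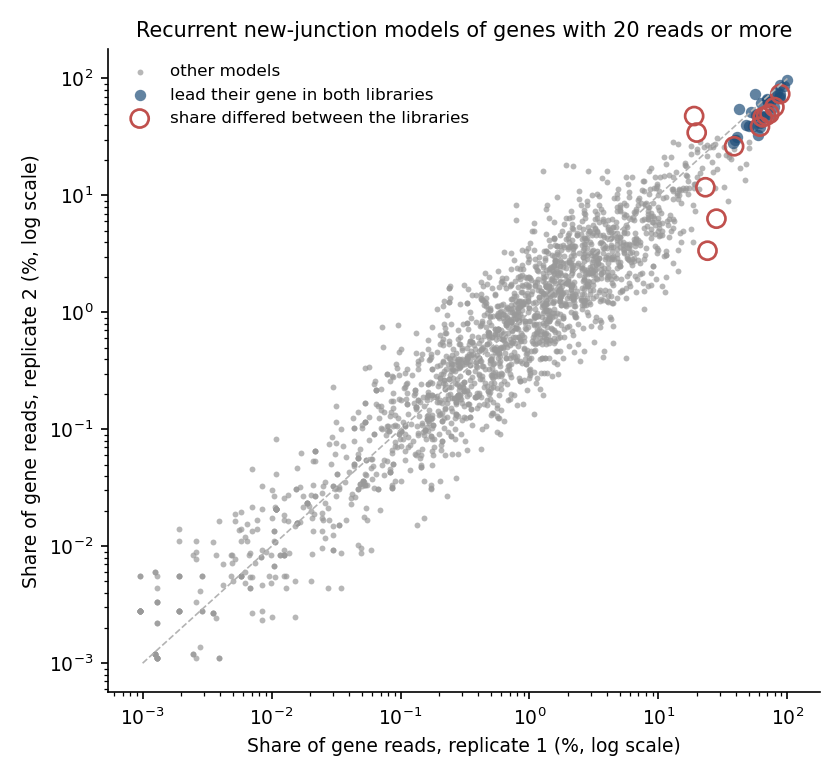
Share of gene reads (%, log scales) of the 2086 recurrent new-junction models of genes read at least 20 times per library, replicate 1 on the horizontal axis and replicate 2 on the vertical axis. The 31 models that led their gene lie at the upper right, and the 12 circled models differed between the libraries.

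New sites of recurrent models were set against the 22266 new sites found in NNC models of a single library, whose median was 1 read. Offsets within 10 bases made up 29.7% of the recurrent sites against 28.9% of the single-library sites (adjusted p = 0.37, two-sided Fisher's exact test, adjusted over 3 tests). Within 30 bases, 30.8% against 28.7% were multiples of 3 (adjusted p = 0.19 by the same Fisher's exact test). GT at a donor or AG at an acceptor was read at 1323 of 1405 readable recurrent sites (94.2%) against 9323 of 10117 single-library sites (92.2%), a difference of 2.01 percentage points (adjusted p = 0.021 by Fisher's exact test). Against single-library sites with at least 2 reads this difference fell to 0.249 points (adjusted p = 0.81 by Fisher's exact test). By kind, 554 of 620 readable recurrent donors (89.4%) had GT and 62 had GC, against GT at 95.8% and GC at 87 of 3209 readable annotated donors of the same genes. Readable acceptors had AG at 98.0% of 785 recurrent sites and 98.5% of 2946 annotated sites. Sites could be read only inside annotated exons or promoter windows, so sites that lengthen an exon into an intron are mostly missing here. Sites of the same gene share their reads, so these tests treat as separate what in part is not.

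Genes with many reads had more recurrent new-junction models. They were present in 21.4% of the 2710 genes with at least 20 but under 100 reads in the lower library, 50.7% of the 906 from 100 to under 1000, 92.3% of the 65 from 1000 to under 10000 and all 10 above that. Sarcomere and Z-disc genes had such a model in 41 of 65 genes with reads, and 2.14% and 1.31% of the list's reads lay in these models in replicates 1 and 2. Calcium handling genes had one in 24 of 46, with 73.8% and 37.8% of reads, and Atp2a1 supplied 98857 of these 99465 reads in replicate 1 and 31389 of 31827 in replicate 2. Respiratory chain, TCA cycle and fat oxidation genes had one in 87 of 122 and glycolysis genes in 23 of 36, with 1.04% and 0.813% and with 0.663% and 0.621% of reads. Genes of creatine and adenylate metabolism had one in 8 of 21, ribosomal protein genes in 23 of 79, translation factors in 9 of 32, splicing regulators in 6 of 57, proteasome and chaperone genes in 20 of 57, matrix genes in 6 of 28 and nuclear noncoding RNAs in 2 of 16, against 1536 of 11810 genes (13.0%) in all. The lists differed in depth, with a median of 507 and 1070.5 reads per gene for the respiratory list and 30 and 28 for the splicing regulators, and the part of depth in the counts per list was not tested.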

How the data were processed

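Long-read RNA-seq of 2 gastrocnemius samples of 1 group was used. The deposited tables hold whole-number read counts per transcript model, with model structures in deposited annotation files. Per the file headers the models are TALON transcripts on mm10 with GENCODE M21, and each model has a novelty class, used as deposited, although 21.4% and 24.0% of new-combination models also hold a site outside M21. For the aligner and all versions: not given in the sources used here. Spike-in models were left out, gene reads were summed over all models of a gene, and CPM was computed over gene reads.

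Recurrent models, gene lists and tests were chosen with earlier results of these data known. Models were matched between tables by their intron chain. A site was called new when no GENCODE M21 transcript used it on that strand, and its offset was taken to the nearest annotated site of the same kind and gene. Bases came from GENCODE M21 transcripts and RefSeq promoter windows (GRCm38.p6), which agreed at all 132509 bases compared. Bases of introns outside these were not used here. All bases are of the reference and not of the reads, so differences between the alleles of the cross were not seen. Shares were tested by two-sided Fisher's exact tests with Benjamini-Hochberg adjustment over all 15527 spliced models (scipy 1.17.1), a procedure also tested on simulated data. Reads carry no molecular identifiers, so Wilson intervals (95%) cover counting error only.

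Named genes were the 12 best-read recurrent models, up to 15 led genes, the 4 best-read models of each kind of change and the 6 largest called differences. Bsg, Got2, Eif3h, Emc3, Mtch1, Ighm and Tmem38a were named after their values had been seen. Per the labels the replicates are biological replicates from separately numbered males that share 1 donor identifier.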

Additional observations from a re-analysis of the deposited data

How the results depend on the processing

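No paired analysis was possible because both samples belong to 1 group. Asking for more reads cut the recurrent models from 2562 to 920 (at least 2 reads in each library) and 300 (at least 5), and those with a new internal exon from 274 to 99 and 23. Allowing any class in the other table gave 3421. Leaving out replicate 1 or 2, which leaves the NNC models of a single library, gave 12648 to 12783. The share of sites within 10 bases was 27.8% and 32.3% with at least 2 and 5 reads, 38.6% with a limit of 30 bases, and 27.1% to 30.6% without a library. The share of multiples of 3 was 27.8% to 32.0% without a library. Recurrent models held 7.32% of gene reads on average and 1.51% without Atp2a1, an alternative chosen after seeing the data, and 3.50% to 11.1% in a single library. They led 20 genes with at least 50 gene reads and 43 with at least 10, against 31. Among complete models alone they led 44, and in a single library 39 to 47. Called share differences numbered 2 of 1928 with complete models as the denominator, against 12 of 2086. Against single-library sites with at least 2 reads, the difference in offsets within 10 bases turned to -1.12 points (adjusted p = 0.71, Fisher's exact test) from 0.795 points, and that in GT or AG fell to 0.249 points. The other alternatives stayed within the limits set, and the causes were not tested. Depth limits models with 1 read.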
